A study of Mus musculus with 20 samples.

Results

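The genes described here are the 9 MHC class II and costimulation genes Cd74, H2-Aa, H2-Ab1, H2-Eb1, H2-DMa, Ciita, Cd40, Cd80 and Cd86, out of 55487 gene identifiers in the count table. They were taken by name, and all 9 passed the filter on low counts and were tested. The data are bulk RNA sequencing of mouse microglia, the resident macrophages of the brain. Each of 10 mice gave 1 library labelled cortex and 1 labelled brainstem. The design asks how microglia that carry the V600E form of BRAF, a constantly active kinase of the ERK cascade, differ from control microglia at end-stage and at 2 months, in a model of histiocytosis.

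The end-stage VE mice, M1376 and M1524, had the genotype Braf VE; CX3 HET, that is the Braf LSL-V600E allele with 1 copy of Cx3cr1CreER, a tamoxifen-dependent Cre expressed from the Cx3cr1 locus in microglia and other macrophages. The end-stage controls were not alike, since mouse M1375 was Braf VE; CX3 WT, with the conditional allele and no Cre, and mouse M1521 was Braf WT; CX3 HET, with Cre and no conditional allele. The 2-month VE mice, M2617, M2621 and M2624, were Braf VE; CX3 HET, and the 2-month controls, M2618, M2629 and M2633, were Braf WT; CX3 HET. Recombination was started on embryonic day 9.5, when pregnant females received 1 dose of 37.5 mg per kg 4-hydroxytamoxifen, and the labels do not say whether the controls were exposed to it too. No age in weeks or months is given for end-stage. Each region label therefore held 2 mice per genotype at end-stage and 3 at 2 months, and a mouse is called by the number that its column of counts carries.

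MHC class II molecules carry peptides from ingested proteins to the cell surface, where CD4 T cells read them. They are pairs of an alpha and a beta chain that are held by the invariant chain until the peptide is loaded, and their genes are switched on together by the coactivator CIITA, which interferon gamma induces. A T cell also needs a second signal from costimulatory proteins, of which CD80 and CD86 bind CD28, while CD40 on the presenting cell receives a signal from CD40 ligand. Resting microglia are known to hold little class II, and more of it in inflamed or degenerating tissue.

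The labels carry conflicts that bear on every value below. For 4 of the 6 mice at 2 months (M2617, M2618, M2621 and M2633), the sample record gives the other genotype than the title that bears the mouse number of the count column. Genotype is read here through the mouse number, and values under the record are given beside the 2-month results. The region labels also have a limit, because transcripts of 39 Hox genes, which pattern the hindbrain, summed to 0.429 to 1.90 CPM (counts per 1e6 counts) in brainstem-labelled libraries and 0.818 to 4.31 CPM in cortex-labelled libraries, and were lower in the brainstem-labelled library of 8 of 10 mice. Libraries are therefore called by their label. Deposited counts summed to 9.4e6 to 21.2e6 per library, so that 3 counts, the most that a count of 0 allows, stood for 0.147 to 0.318 CPM. Microglial markers summed to 34617 to 68985 CPM in every library, while 9 markers of T and NK cells summed to at most 1.36 CPM. In cortex-labelled libraries these T and NK cell sums were 0.716 to 1.36 CPM in VE mice, against 0 CPM in both controls, at end-stage, and 0.772 to 0.978 CPM in VE mice, against 0 to 0.492 CPM in controls, at 2 months. Nothing in the labels says how the cells were purified, and fewer cells of a type and less RNA per cell cannot be told apart in bulk samples.

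Cd40 and Cd74 were the members in which VE microglia stood furthest above controls. With genotype read through the mouse number, Cd40 at 2 months was higher in cortex-labelled VE libraries, where 5.45% of all genes were called. It was the only 1 of the 9 members to pass the test in a genotype comparison. Cd74, by the same reading, stood above controls without overlap at both stages under both region labels. The ratio of its group means, VE over control, lay between 2.47 and 4.10. Under the sample record, the log2 difference of Cd40 at 2 months in cortex-labelled libraries was −1.30. Those of Cd74 at 2 months were then −0.74 in brainstem-labelled and −1.43 in cortex-labelled libraries. In the fit over all libraries by mouse number, the genotype differences of Cd74 did not pass. The class II chains H2-Aa and H2-Eb1 did not follow Cd74, and no difference of Cd80 or Cd86 passed in that fit.

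**Figure D1:**
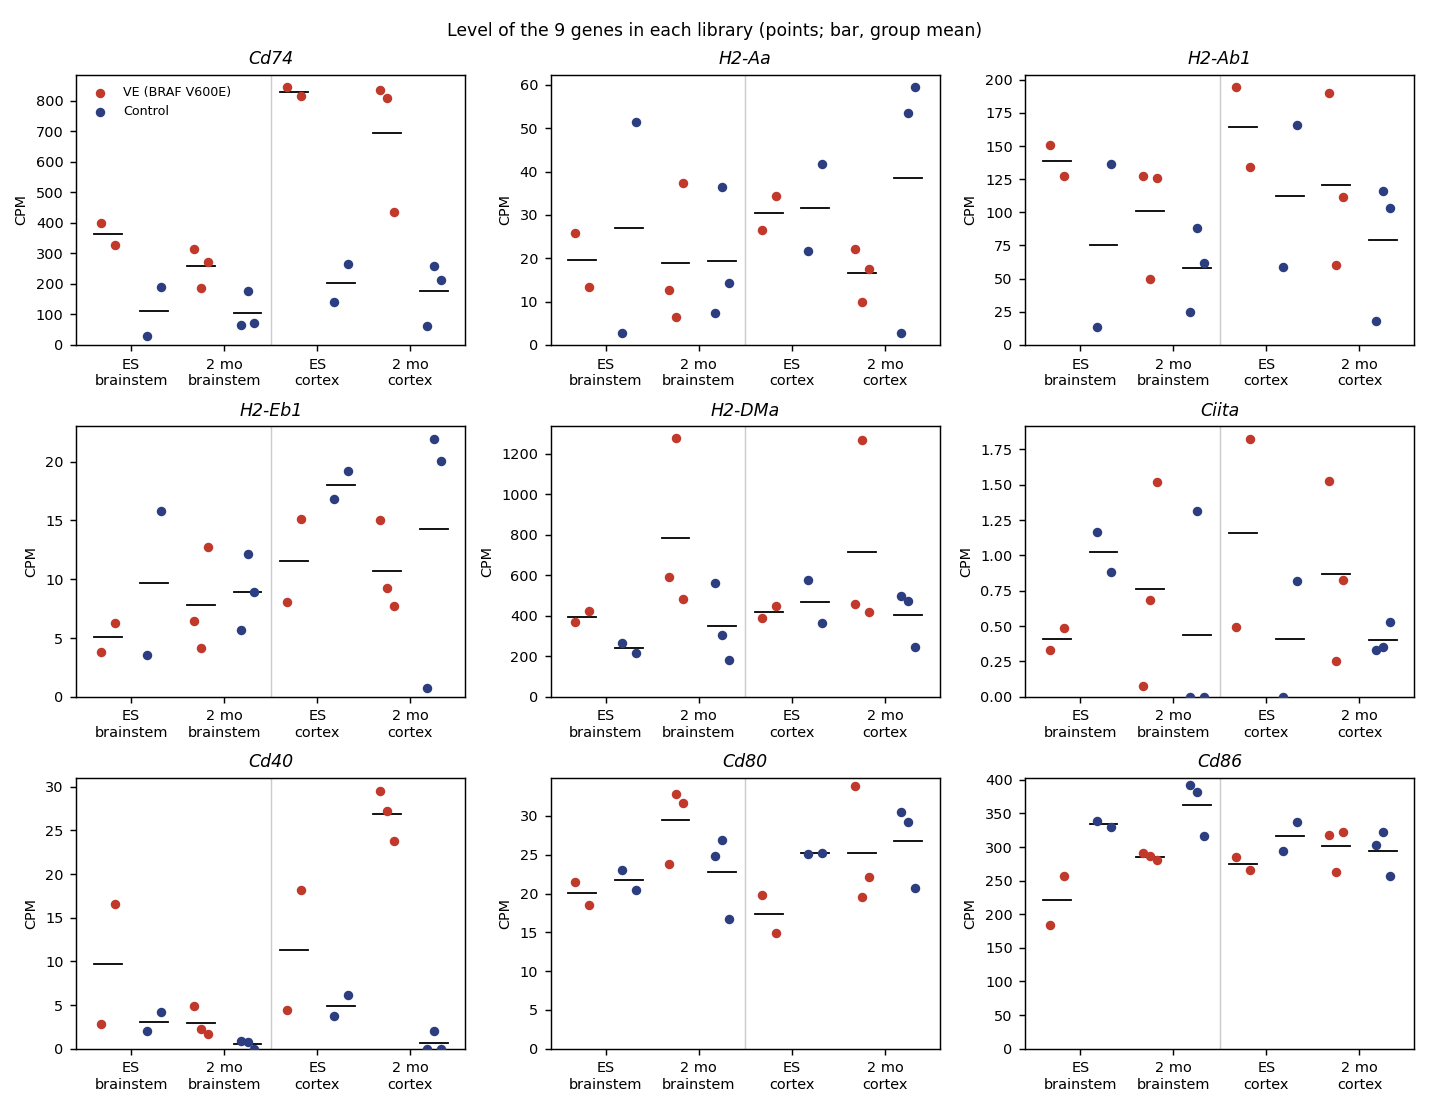
Level of each of the 9 genes in CPM (vertical axis, from 0) in 20 libraries, by stage (ES, end-stage; 2 mo, 2 months) and region label, with VE libraries in red left of control libraries in blue and a bar at the mean of each group. Cd74 is higher in VE libraries in all 4 pairs of groups, and Cd40 is highest in the VE cortex-labelled libraries at 2 months.

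Cd74 (ENSMUSG00000024610.15, GRCm38 chromosome 18, 60803848 to 60812652, plus strand) codes for the invariant chain, which fills the class II groove and steers the complex to the endosome. In end-stage brainstem-labelled libraries it had 400 and 328 CPM in VE mice, against 28.7 and 191 CPM in controls. In end-stage cortex-labelled libraries it had 844 and 815 CPM in VE mice, against 139 and 265 CPM in controls. At both labels the lower VE library was above the higher control. At 2 months, brainstem-labelled libraries had 315, 185 and 271 CPM of Cd74 in VE mice, against 64.4, 177 and 71.7 CPM in controls. The cortex-labelled libraries at 2 months had 836, 808 and 436 CPM of Cd74 in VE mice, against 61.0, 259 and 211 CPM in controls. Of the 16595 genes tested, 0.91% stood above controls without overlap in all 4 pairs of groups as Cd74 did.

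The Cd74 differences, VE minus control on the log2 scale, were 1.73 ± 0.71 (SE, adjusted p = 0.39) in brainstem-labelled and 2.04 ± 0.71 (adjusted p = 0.136) in cortex-labelled libraries at end-stage, by edgeR's quasi-likelihood test with Benjamini-Hochberg adjustment over all genes. At 2 months Cd74 differed by 1.30 ± 0.57 (adjusted p = 0.528) in brainstem-labelled and 1.97 ± 0.58 (adjusted p = 0.0573) in cortex-labelled libraries. The last of these passed with the mouse as a random block (adjusted p = 0.0125 in limma voom), with DESeq2 (0.0127, where it called 9.41% of all genes), in edgeR over the compared groups alone (0.0345), and without end-stage control mouse M1375 (0.0198) or M1521 (0.0196) in edgeR. The cortex-labelled difference of Cd74 at end-stage passed over the compared groups alone (adjusted p = 0.024 by edgeR). With genotype taken from the sample record, the Cd74 difference at 2 months was −0.74 in brainstem-labelled and −1.43 in cortex-labelled libraries (adjusted p = 1 for both in edgeR). Without the 4 mice whose labels conflict, which leaves 1 mouse per genotype at 2 months, Cd74 differed by 0.61 and 0.76 in brainstem-labelled and cortex-labelled libraries. The direction of Cd74 at 2 months thus depends on which label is read, and its direction at end-stage, where no label conflicts, does not.

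H2-Aa (ENSMUSG00000036594.15, chromosome 17, 34282744 to 34287823, minus strand) codes for the alpha chain of the I-A molecule, and H2-Ab1 (ENSMUSG00000073421.6, 34257689 to 34269419, plus strand) for its beta chain. H2-Eb1 (ENSMUSG00000060586.11, 34305867 to 34316674, plus strand) codes for the beta chain of the I-E molecule and overlaps Gm20513 on the other strand. Class II promoters are known for an X box bound by the RFX complex and a Y box, an inverted CCAAT box bound by NF-Y, which together recruit CIITA. The stretches below, from the RefSeq promoters of GRCm38.p6 (250 bases before to 50 after each start), show these boxes where their letters were found. The pair was found for H2-Aa, H2-Eb1 and H2-DMb1, while the H2-DMb2 window held the Y box letters without the pair. Capitals mark the letters GNAAC, the core of the X box searched on the gene's strand, and TGATTGG for the Y box.
H2-Aa, chr17:34287859-34287912, minus strand: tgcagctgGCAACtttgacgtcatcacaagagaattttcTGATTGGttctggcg
H2-Eb1, chr17:34305768-34305820, plus strand: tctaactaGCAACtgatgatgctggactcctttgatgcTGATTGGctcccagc
H2-DMb1, chr17:34153089-34153142, plus strand: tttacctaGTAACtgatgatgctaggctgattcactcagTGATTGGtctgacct
H2-DMb2, chr17:34145116-34145171, plus strand: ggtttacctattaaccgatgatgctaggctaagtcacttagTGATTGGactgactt
Across 32851 promoters of 300 bases, TGATTGG on either strand was found in 7.82%. GNAAC followed after 20 to 30 bases by TGATTGG, also counted on either strand, was found in 0.323%. The spacing was set after these sequences were seen. The H2-DMa and Cd80 windows held neither the pair nor the Y box letters, and Cd74, H2-Ab1, Ciita, Cd40 and Cd86 are named only.

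H2-Ab1 had 151 and 127 CPM in VE mice, against 13.4 and 137 CPM in controls, in end-stage brainstem-labelled libraries, and 195 and 134 CPM in VE mice, against 58.5 and 165 CPM in controls, in cortex-labelled ones. At 2 months H2-Ab1 had 127, 50.02 and 126 CPM in VE mice, against 24.5, 88.5 and 61.9 CPM in controls, in brainstem-labelled libraries. The cortex-labelled libraries at 2 months had 190, 60.1 and 112 CPM in VE mice, against 18.4, 116 and 103 CPM in controls. Its VE and control libraries overlapped in all 4 pairs of groups. The H2-Ab1 means were higher in VE in each, with log2 differences of 0.89 ± 0.89 and 0.55 ± 0.88 at end-stage and 0.79 ± 0.72 and 0.60 ± 0.72 at 2 months in brainstem-labelled and cortex-labelled libraries, none past the threshold (adjusted p = 0.803, 0.806, 0.796 and 0.723 by edgeR). With the genotype of the record, H2-Ab1 at 2 months differed by −0.33 and −0.65.

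H2-Aa did not show the excess seen for Cd74. In end-stage brainstem-labelled libraries H2-Aa had 25.7 and 13.3 CPM in VE mice, against 2.82 and 51.3 CPM in controls, and in cortex-labelled ones 26.5 and 34.4 CPM in VE mice, against 21.6 and 41.7 CPM in controls. At 2 months it had 12.7, 6.44 and 37.4 CPM in VE mice, against 7.29, 36.5 and 14.3 CPM in controls, in brainstem-labelled libraries. In cortex-labelled libraries at 2 months H2-Aa had 22.1, 9.99 and 17.6 CPM in VE mice, against 2.68, 53.5 and 59.5 CPM in controls. All 4 pairs of groups overlapped, and controls spanned the wider range in all of them except the brainstem-labelled libraries at 2 months. The H2-Aa differences were −0.47 ± 1.13 and −0.06 ± 1.13 at end-stage and −0.05 ± 0.93 and −1.22 ± 0.93 at 2 months in brainstem-labelled and cortex-labelled libraries. The last had an adjusted p of 0.528 by edgeR. Under the record, H2-Aa at 2 months differed by 0.08 and −0.11.

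Per length of exon, H2-Eb1 and H2-Aa had median levels below that of H2-Ab1 in each of the 8 groups, and their own order differed between groups. At end-stage H2-Eb1 had 3.83 and 6.29 CPM in VE mice, against 3.55 and 15.8 CPM in controls, in brainstem-labelled libraries. In cortex-labelled ones it had 8.07 and 15.1 CPM in VE mice, against 16.8 and 19.2 CPM in controls, which did not overlap. At 2 months H2-Eb1 ranged from 4.13 to 12.8 CPM in VE mice and from 5.71 to 12.1 CPM in controls in brainstem-labelled libraries, and from 7.72 to 15.03 CPM in VE mice and from 0.765 to 21.9 CPM in controls in cortex-labelled ones. The lowest H2-Eb1 level was in control mouse M2618, whose H2-Aa (2.68 CPM) and H2-Ab1 (18.4 CPM) in the same library were also the lowest of the cortex-labelled libraries. None of the 4 differences passed, with the largest at −0.94 ± 0.92 in end-stage brainstem-labelled libraries (adjusted p = 0.8 by edgeR). Under the record, H2-Eb1 at 2 months differed by 0.27 in brainstem-labelled and −0.70 in cortex-labelled libraries.

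**Figure D2:**
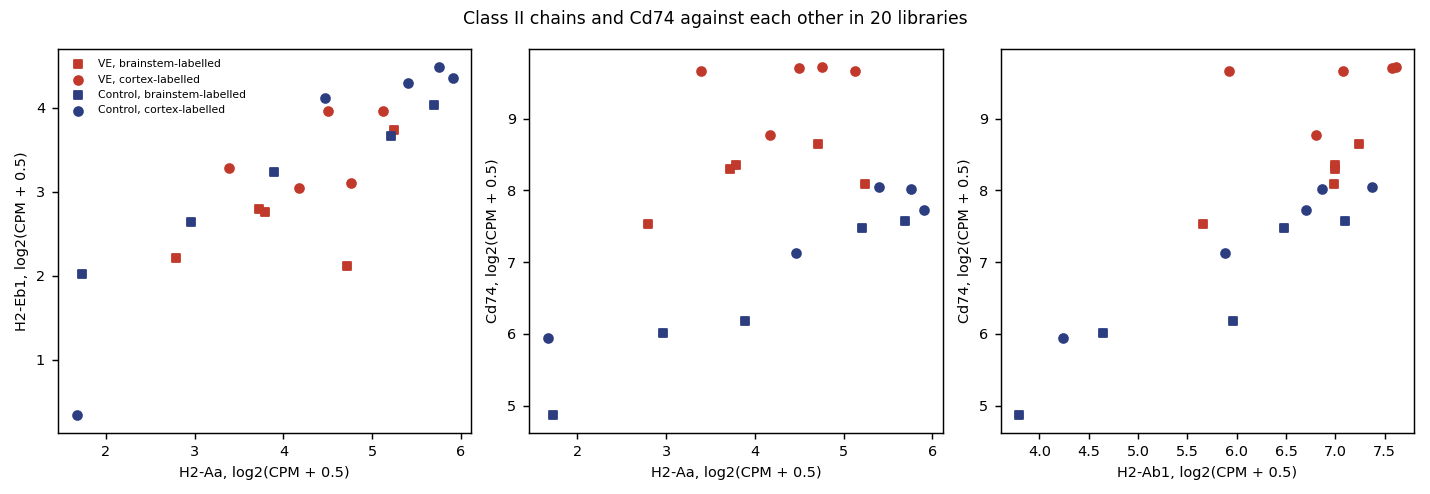
Levels of H2-Eb1 and Cd74 against H2-Aa, and of Cd74 against H2-Ab1, on the log2(CPM + 0.5) scale on both axes, with 1 point per library (VE in red, control in blue, brainstem-labelled as squares, cortex-labelled as circles). H2-Eb1 follows H2-Aa across libraries, while VE libraries lie at more Cd74 for the same H2-Aa than controls.

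Pairs of these genes differed in how closely they varied together from mouse to mouse. Over 10 mice, H2-Aa and H2-Eb1 had a Pearson r of 0.794 in brainstem-labelled libraries (Spearman rho 0.806, and r 0.632 without the 2 libraries farthest from the median of H2-Aa) and 0.914 in cortex-labelled ones (rho 0.842, r 0.710 without 2). H2-Ab1 and H2-Eb1 had an r of 0.487 in brainstem-labelled (rho 0.370, 0.177 without 2) and 0.732 in cortex-labelled libraries (rho 0.139, 0.134 without 2), so their relation rests largely on 2 libraries. Cd74 and H2-Aa had an r of 0.635 in brainstem-labelled (rho 0.418, 0.097 without 2) and 0.332 in cortex-labelled libraries (rho 0.067), and −0.486 without 2 in the cortex-labelled ones, so that relation had no stable sign. Cd74 and H2-Ab1 had an r of 0.921 in brainstem-labelled (rho 0.879, 0.726 without 2) and 0.727 in cortex-labelled libraries (rho 0.806, 0.302 without 2). The last value rests largely on 2 libraries. These are descriptions of 10 mice of 4 groups among 36 pairs of members, computed per region label, and the mice share their groups and library preparation.

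With genotype read through the mouse number, the ratio of Cd74 to H2-Ab1 counts separated the genotypes in 3 of the 4 pairs of groups. At end-stage Cd74 over H2-Ab1 was 2.58 to 2.65 in VE mice, against 1.40 to 2.14 in controls, in brainstem-labelled libraries, and 4.33 to 6.08 in VE mice, against 1.60 to 2.38 in controls, in cortex-labelled ones. At 2 months it was 2.16 to 3.71 in VE mice, against 1.16 to 2.62 in controls, in brainstem-labelled libraries, and 3.91 to 13.5 in VE mice, against 2.04 to 3.32 in controls, in cortex-labelled ones. Only the brainstem-labelled libraries at 2 months overlapped. Under the record, the cortex-labelled libraries at 2 months overlapped too, at 2.04 to 3.91 in VE mice and 2.23 to 13.5 in controls. The ratio of Cd74 to H2-Aa in cortex-labelled libraries was 23.7 to 31.8 in VE mice, against 6.35 to 6.45 in controls, at end-stage, and 24.8 to 80.9 in VE mice, against 3.55 to 22.8 in controls, at 2 months. In brainstem-labelled libraries it was 15.5 to 24.6 in VE mice, against 3.72 to 10.2 in controls, at end-stage. At 2 months the brainstem-labelled libraries overlapped, at 7.24 to 28.8 in VE mice and 4.85 to 8.83 in controls. Under the record, Cd74 over H2-Aa in cortex-labelled libraries at 2 months overlapped, at 3.55 to 24.8 in VE mice and 4.84 to 80.9 in controls. Ratios within a library show unequal levels of these genes and not which of them moved, and they were not tested.

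H2-DMa (ENSMUSG00000037649.10, chromosome 17, 34119541 to 34139101, plus strand) codes for a chain of the DM molecule, which exchanges the invariant chain peptide for others. Its annotated span overlaps Brd2 and other genes on the minus strand, and CR974462.3 on the plus strand. A strand setting is not given in the sources used here, and shared reads cannot be told apart. Both libraries of VE mouse M2621 stood far above the rest, at 1281 and 1271 CPM of H2-DMa in the brainstem-labelled and cortex-labelled library, against 180 to 591 CPM in the other 18 libraries. Brd2 stood at 172 and 189 CPM in these 2 libraries, within the 141 to 205 CPM of the other libraries. At end-stage H2-DMa had 371 and 423 CPM in VE mice, against 265 and 217 CPM in controls, in brainstem-labelled libraries, and 387 and 451 CPM in VE mice, against 577 and 363 CPM in controls, in cortex-labelled ones. The H2-DMa differences at end-stage were 0.72 ± 0.56 and −0.16 ± 0.55, and those at 2 months 1.17 ± 0.46 and 0.82 ± 0.46, in brainstem-labelled and cortex-labelled libraries. None passed (adjusted p = 0.717, 0.924, 0.461 and 0.344 by edgeR). Without mouse M2621 the H2-DMa differences at 2 months were 0.62 and 0.11, and with the genotype of the record, which puts that mouse among the controls, they were −0.83 and −0.92.

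Ciita (ENSMUSG00000022504.10, chromosome 16, 10480059 to 10528418, plus strand), the coactivator of class II transcription, was near the limit of detection. It had between 0 and 28 counts per library and no count in 3 of the 20. The largest Ciita level was 1.82 CPM, in end-stage VE mouse M1524 in the cortex-labelled library. In end-stage brainstem-labelled libraries Ciita was at 0.333 and 0.488 CPM in VE mice, against 1.16 and 0.881 CPM in controls, which did not overlap but rests on 6 to 19 counts per library. The Ciita differences were −1.30 ± 1.62 and 1.40 ± 1.64 at end-stage and 0.76 ± 1.33 and 1.10 ± 1.33 at 2 months in brainstem-labelled and cortex-labelled libraries. None passed, and no detection limit was computed, so a difference in either direction remains possible. By the record, Ciita at 2 months differed by −0.52 and −0.33. Ciita overlaps Dexi on the other strand.

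Cd40 (ENSMUSG00000017652.16, chromosome 2, 165055627 to 165072948, plus strand) codes for the TNF receptor family member through which a helper T cell activates the presenting cell. In cortex-labelled libraries at 2 months Cd40 had 29.5, 27.3 and 23.8 CPM in VE mice, against 0, 2.05 and 0 CPM in controls. These were 483, 532 and 463 counts in VE mice, against 0, 41 and 0 counts in controls. In brainstem-labelled libraries at 2 months Cd40 had 4.90, 2.21 and 1.68 CPM in VE mice, against 0.848, 0.714 and 0 CPM in controls. VE mice were above controls without overlap at both labels, and the cortex-labelled VE libraries were far above all others at that stage. At end-stage Cd40 had 2.83 and 16.6 CPM in VE mice, against 2.02 and 4.15 CPM in controls, in brainstem-labelled libraries, and 4.41 and 18.2 CPM in VE mice, against 3.71 and 6.16 CPM in controls, in cortex-labelled ones. At end-stage the groups overlapped, with mouse M1524 above the controls and mouse M1376 within their range at both labels.

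Cd40 averaged 26.9 ± 2.86 CPM in VE mice and 0.685 ± 1.19 CPM in controls (SD, n = 3 each) in cortex-labelled libraries at 2 months. Its log2 difference was 5.22 ± 1.16 (SE, adjusted p = 0.0118 by edgeR), in a comparison in which 5.45% of all genes tested were called, and the fitted size depends on how the 0 counts of 2 controls are treated. The call held in 15 of 17 alternatives and was lost under both that change the conflicting labels. Without control mouse M2629, which leaves Cd40 controls with no count, the fitted difference was 11.8, which is no bound, and without each other mouse it was at least 4.64. With the genotype of the sample record, under which 0.00603% of all genes were called, Cd40 differed by −1.30 (adjusted p = 1), and without the 4 mice with conflicting labels by 3.54 (adjusted p = 0.573). Under the record, the VE mice would hold 0, 23.8 and 0 CPM of Cd40 and the controls 29.5, 27.3 and 2.05 CPM. In the other comparisons the Cd40 difference was 1.65 ± 1.20 (adjusted p = 0.688) and 1.19 ± 1.19 (adjusted p = 0.659) at end-stage in brainstem-labelled and cortex-labelled libraries, and 2.46 ± 1.12 (adjusted p = 0.544) at 2 months in brainstem-labelled libraries, where it was −1.65 under the record.

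Cd80 (ENSMUSG00000075122.5, chromosome 16, 38455561 to 38496335, plus strand) and Cd86 (ENSMUSG00000022901.13, chromosome 16, 36603869 to 36666081, minus strand) code for the B7 ligands of CD28 and of the inhibitory receptor CTLA-4. Cd80 kept to a narrow range of 14.9 to 33.9 CPM over all 20 libraries. In end-stage cortex-labelled libraries Cd80 had 19.8 and 14.9 CPM in VE mice, against 25.1 and 25.3 CPM in controls, which did not overlap (log2 difference −0.53 ± 0.29 SE, adjusted p = 0.36 by edgeR). In the other pairs of groups Cd80 overlapped, and its differences were −0.12 ± 0.29 in brainstem-labelled libraries at end-stage and 0.37 ± 0.24 and −0.09 ± 0.24 in brainstem-labelled and cortex-labelled libraries at 2 months. By the record, the 2-month differences of Cd80 were −0.19 and −0.17.

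Cd86 had the smallest standard errors of the 9 members. In brainstem-labelled libraries Cd86 had 185 and 256 CPM in VE mice, against 339 and 330 CPM in controls, at end-stage. At 2 months it had 291, 287 and 280 CPM in VE mice, against 392.1, 382 and 316 CPM in controls. The brainstem-labelled differences of Cd86 were −0.60 ± 0.18 (adjusted p = 0.179 by edgeR, and 0.0382 by DESeq2) at end-stage and −0.35 ± 0.14 (adjusted p = 0.492) at 2 months. At end-stage in cortex-labelled libraries it had 285 and 265 CPM in VE mice, against 295 and 338 CPM in controls (−0.20 ± 0.18, adjusted p = 0.599). At 2 months cortex-labelled Cd86 was level, at 301 ± 33.2 CPM in VE mice and 294 ± 34.0 CPM in controls (SD, n = 3 each, 0.03 ± 0.14 SE, adjusted p = 0.936 by edgeR). Under the record, brainstem-labelled Cd86 at 2 months overlapped, at 280 to 392.1 CPM in VE mice and 287 to 382 CPM in controls, and differed by 0.04, and cortex-labelled Cd86 by −0.04.

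**Figure D3:**
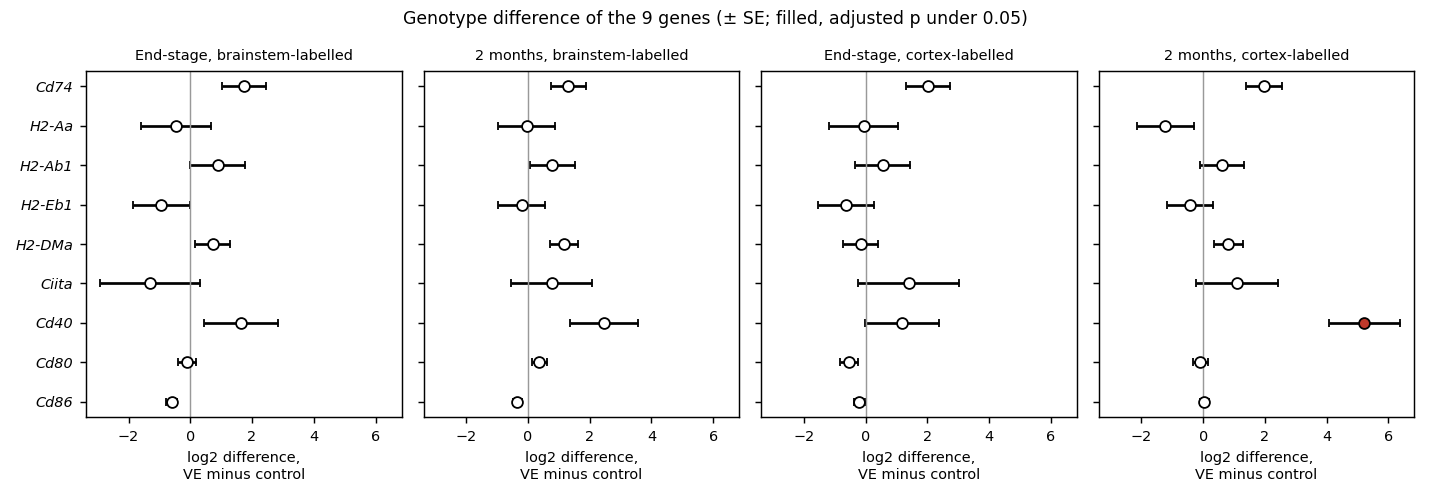
Log2 difference, VE minus control (horizontal axis), of the 9 genes in the 4 pairs of groups, with bars of 1 SE and a filled point where the adjusted p of edgeR was under 0.05. Only Cd40 at 2 months in cortex-labelled libraries is filled, and Cd80 and Cd86 have the shortest bars.

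Read over the 9 members, VE groups stood above controls without overlap for 2 and below for 2 in end-stage brainstem-labelled libraries, where 18.5% of all genes tested stood above and 20.5% below. In end-stage cortex-labelled libraries 1 member stood above and 3 below, where 25.1% of all genes stood above and 24% below. At 2 months 2 stood above and 1 below in brainstem-labelled libraries, where 7.19% stood above and 6.51% below. In cortex-labelled libraries at 2 months 2 stood above and 0 below, where 13.4% stood above and 11.3% below. The members' shares at end-stage were thus near those of all genes. By edgeR, 0 of 9 members were called at end-stage in brainstem-labelled libraries (0.151% of all genes) and cortex-labelled ones (4.01%), and 0 of 9 at 2 months in brainstem-labelled ones (0.0362%). DESeq2 called 1 member, Cd86, in the first of these, where it called 2.13% of all genes.

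Per length of exon the order of the members by their median over the 20 libraries, all groups together, was Cd74, H2-DMa, Cd86, H2-Ab1, Cd80, H2-Aa, H2-Eb1, Cd40 and Ciita. The median level of Cd74 was 156 CPM per kb, with a range of 17.1 to 503 CPM per kb. H2-DMa had a median of 127 CPM per kb, Cd86 of 81.6, and H2-Ab1 of 44.3. Those of Cd80 (6.33), H2-Aa (5.76) and H2-Eb1 (4.67 CPM per kb) lay close together, and their ranges overlapped. Cd40 had a median of 0.96 and Ciita of 0.053 CPM per kb. The ranges of the leading 3 overlapped too, and their order differed between groups. Cd74 had the highest group median in the VE groups at end-stage under both labels (217 CPM per kb in brainstem-labelled and 494 in cortex-labelled libraries) and in cortex-labelled VE mice at 2 months (481). It led in no control group. H2-DMa led with 171 against 162 CPM per kb of Cd74 in brainstem-labelled VE mice at 2 months, with 136 against 120 in cortex-labelled controls at end-stage, and with 137 against 126 in cortex-labelled controls at 2 months. Cd86 led in brainstem-labelled controls, with 91.3 CPM per kb at end-stage and 104 at 2 months.

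Between region labels, Cd74 was lower in brainstem-labelled libraries. It was lower in the brainstem-labelled library of 9 of 10 mice, the exception being control mouse M2618 with 64.4 CPM of Cd74 in the brainstem-labelled and 61.0 CPM in the cortex-labelled library. The log2 difference of Cd74, brainstem-labelled minus cortex-labelled and averaged over the 4 genotype and stage groups, was −1.07 ± 0.32 (SE, adjusted p = 0.0327 by edgeR), in a comparison that called 14% of all genes. It was the only 1 of 9 members to pass there. The Cd74 call was lost with the genotype of the record (adjusted p = 0.0951) and without the 4 mice with conflicting labels (0.318). It was also lost on leaving out M1376 (0.0887), M1524 (0.113), M2617 (0.0577), M2621 (0.0764) or M2633 (0.074), all by edgeR. In the same comparison 5 of 10 microglial markers (P2ry12, Sall1, Fcrls, Gpr34 and Siglech) were higher and 0 lower in brainstem-labelled libraries. Of the markers of border-associated macrophages Siglec1 and Ms4a7 were lower, of dendritic cells Flt3 was lower, and of B and plasma cells Ighm and Ighd were higher. Their part in the Cd74 difference was not tested.

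The other members did not pass between labels. H2-Ab1, H2-Eb1 and Cd40 were lower in the brainstem-labelled library of 8 of 10 mice each, H2-Aa of 7, H2-DMa and Cd80 of 6, and Cd86 and Ciita of 5. Cd40 differed by −1.13 ± 0.57 (adjusted p = 0.202 by edgeR). H2-DMa differed by −0.28 ± 0.25 (adjusted p = 0.512), and passed with the mouse as a fixed block (adjusted p = 0.032 by edgeR). In the 3 VE mice at 2 months, Cd40 was at 1.68 to 4.90 CPM in brainstem-labelled and 23.8 to 29.5 CPM in cortex-labelled libraries. Whether the genotype difference of Cd40 itself depended on the label at 2 months did not pass (−2.76 ± 1.54, brainstem-labelled minus cortex-labelled, adjusted p = 0.681), in a comparison that called 0.0241% of genes.

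**Figure D4:**
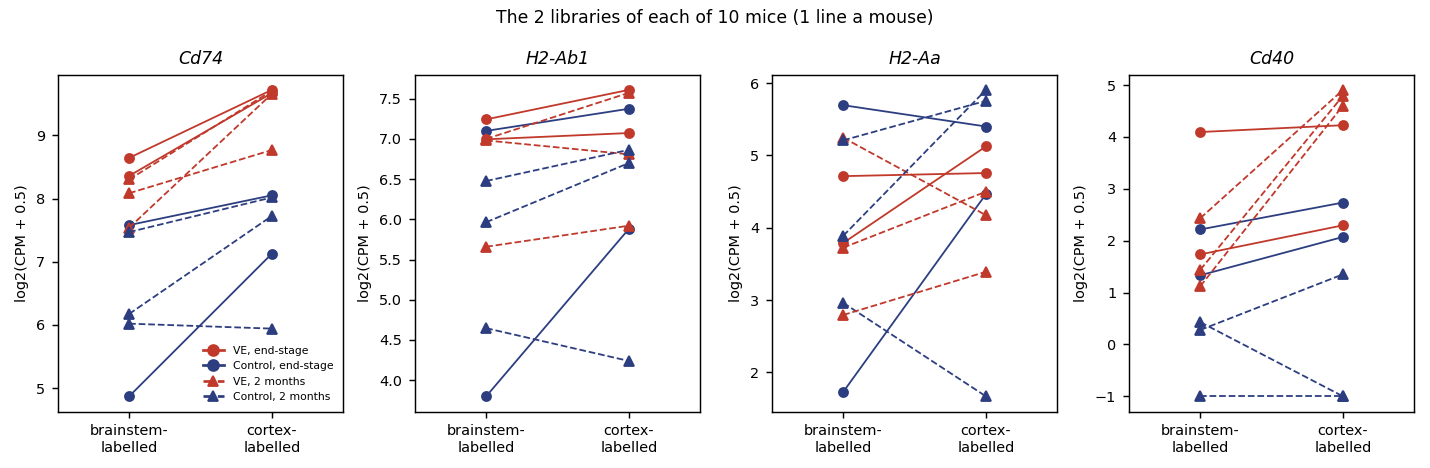
Levels of Cd74, H2-Ab1, H2-Aa and Cd40 on the log2(CPM + 0.5) scale in the brainstem-labelled (left) and cortex-labelled (right) library of each of 10 mice, joined by a line (VE in red, control in blue, end-stage as solid lines with circles, 2 months as dashed lines with triangles). Cd74 is lower in the brainstem-labelled library in 9 of 10 mice, and the 3 VE mice at 2 months show the steepest lines for Cd40.

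Between stages no member passed in either genotype. Over all genes, end-stage minus 2 months called 0.0422% in VE brainstem-labelled libraries, 1.84% in VE cortex-labelled ones, and 0 in controls under either label, where 0 of 9 members were called as well. Cd74 in VE mice averaged 364 ± 50.7 CPM at end-stage (SD, n = 2) and 257 ± 66.1 CPM at 2 months (n = 3) in brainstem-labelled libraries, and 830 ± 20.9 CPM and 693 ± 223 CPM in cortex-labelled ones. Cd40 in cortex-labelled libraries differed between stages by −1.25 ± 1.09 in VE mice (adjusted p = 0.679 by edgeR) and by 2.78 ± 1.15 in controls (adjusted p = 0.534). The test of that difference, genotype by stage, gave −4.03 ± 1.61 for Cd40 (adjusted p = 0.422), and 0.265% of genes were called. In the remaining tests of genotype by stage and genotype by region, 0 of 9 members were called as well, against 0.00603% of genes for genotype by stage in brainstem-labelled libraries and 0.0844% for genotype by region at end-stage.

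The pathway around the members was read from 4 lists. The first holds 19 other class II pathway genes, such as the DM and DO chains, the RFX and NF-Y subunits and the endosomal proteases. In cortex-labelled libraries at 2 months 3 of these 19 were higher in VE mice and 0 lower, against 3.64% of all genes called higher, with a list median of 0.30 and a median of −0.01 over all genes tested on the log2 scale. Cathepsin S, Ctss, which trims the invariant chain, was at 17998, 19285 and 21215 CPM from lowest to highest in VE mice, against 10276, 11669 and 13722 CPM in controls (0.71 ± 0.12 SE, adjusted p = 0.0023 by edgeR). Cd83, which protects class II and CD86 from degradation, rose by 1.02 ± 0.22 (adjusted p = 0.0094). Marchf8, a ubiquitin ligase that directs class II and CD86 to degradation, rose by 0.82 ± 0.23 (adjusted p = 0.0457). In end-stage cortex-labelled libraries Cd83 alone of the 19 passed, at 967 and 1008 CPM in VE mice, against 384 and 545 CPM in controls (1.09 ± 0.27, adjusted p = 0.0276). In brainstem-labelled libraries 0 of 19 passed at either stage. The share of all genes called was 4.01% in end-stage cortex-labelled libraries. It was 0.151% at end-stage and 0.0362% at 2 months in brainstem-labelled ones. Reads of the near-identical H2-DMb1 and H2-DMb2 may be split between them.

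Of the 14 genes of the class II induction list, 12 were tested, and Ifng had no count in any library. In cortex-labelled libraries at 2 months Socs1, a feedback inhibitor of interferon signalling, was at 31.6, 38.8 and 38.9 CPM from lowest to highest in VE mice, against 14.5, 14.7 and 16.1 CPM in controls (1.27 ± 0.23 SE, adjusted p = 0.0033 by edgeR). Irf8, a transcription factor of myeloid cells, rose by 0.56 ± 0.15 (adjusted p = 0.0385), and 0 genes of the list were lower. In end-stage cortex-labelled libraries Spi1, the myeloid factor PU.1, was lower, at 404 and 477 CPM in VE mice, against 691 and 704 CPM in controls (−0.66 ± 0.18, adjusted p = 0.0441). No other gene of that list passed there, where 4.01% of all genes were called. In brainstem-labelled libraries 0 of 12 passed, where 0.151% of all genes were called at end-stage and 0.0362% at 2 months. In VE mice, Socs1 in cortex-labelled libraries was lower at end-stage than at 2 months (−1.23, adjusted p = 0.0207 by edgeR).

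Of 13 other costimulation and checkpoint genes, 11 were tested. Icam1, the adhesion ligand of LFA-1, was at 481, 495 and 525 CPM from lowest to highest in VE mice at 2 months, against 198, 227 and 246 CPM in controls, in cortex-labelled libraries (1.16 ± 0.25 SE, adjusted p = 0.0096 by edgeR). Cd276, the B7 family member B7-H3, was lower in cortex-labelled VE libraries at both stages, by −2.11 ± 0.52 at end-stage (adjusted p = 0.0289) and −1.83 ± 0.42 at 2 months (adjusted p = 0.0137). At end-stage Cd276 had 10.7 and 15.5 CPM in VE mice, against 38.2 and 74.4 CPM in controls. In brainstem-labelled libraries 0 of 11 passed, where 0.151% of all genes were called at end-stage and 0.0362% at 2 months. Of the 6 partner genes of T cells, 3 were tested and 0 passed in a genotype comparison. These comparisons called between 0.0362% and 5.45% of all genes.

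**Figure D5:**
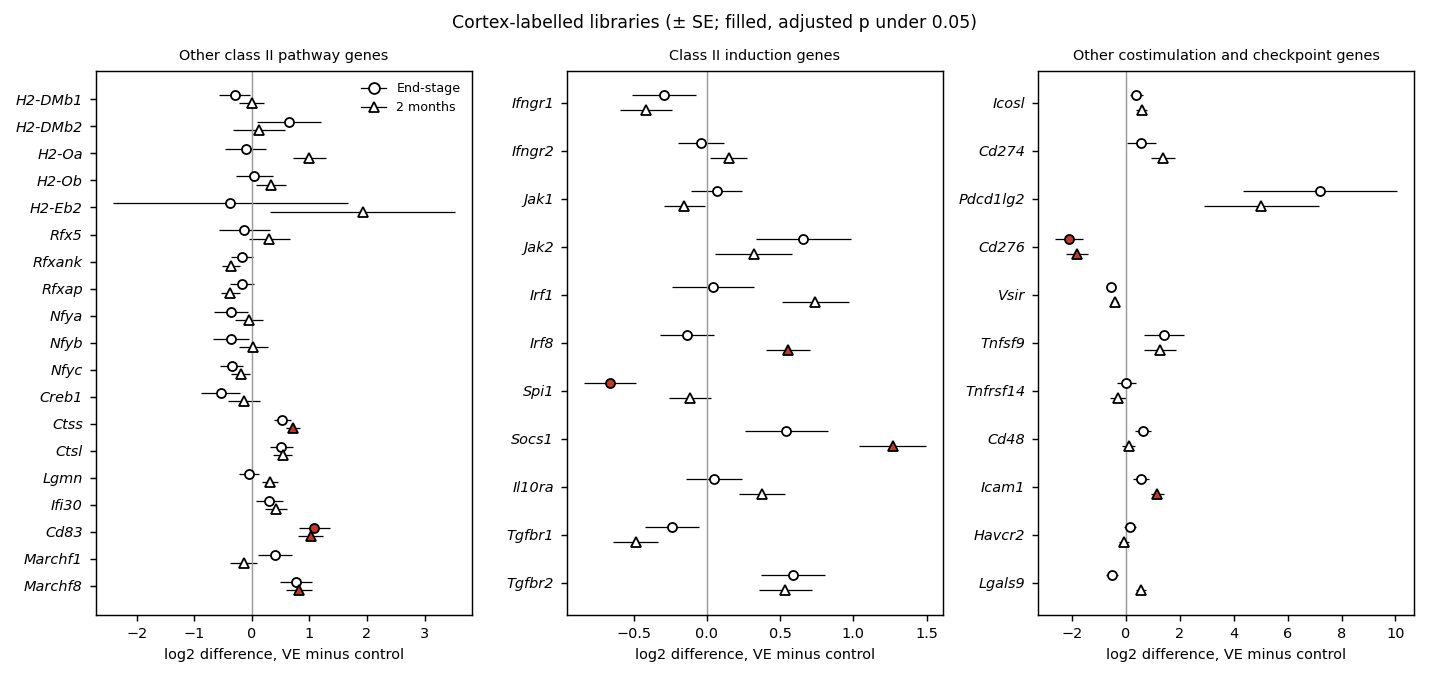
Log2 difference, VE minus control (horizontal axis), of genes of 3 lists in cortex-labelled libraries at end-stage (circles) and at 2 months (triangles), with bars of 1 SE and a filled point where the adjusted p of edgeR was under 0.05. Cd276 is lower and Cd83 higher at both stages, and the filled triangles at 2 months include Socs1, Ctss and Icam1.

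The list calls at 2 months depended on the reading of the labels as Cd40 did. With the genotype of the record, Ctss, Cd83, Marchf8, Socs1, Irf8, Icam1 and Cd276 each had an adjusted p of 1 by edgeR and a difference of the opposite sign. Without the 4 mice with conflicting labels they kept the sign and did not pass (adjusted p = 0.581 to 0.726). Ctss and Socs1 were called in all of the other 15 alternatives, Cd83 and Icam1 in 14 of 17 (lost also without M2633), Cd276 in 13 of 17 (also without M2617 or M2618), Irf8 in 9 and Marchf8 in 8. At end-stage, Cd83 was called in 12 of 17 alternatives, Cd276 in 11 and Spi1 in 5, with the same sign under the record and without the 4 mice. Leaving out VE mouse M1376 or M1524 ended the calls of Cd83, Cd276 and Spi1 alike, and with the mouse as a random block Cd276 at end-stage had an adjusted p of 0.0675 (limma voom). The fall of Socs1 between stages in VE mice was called in 11 of 17. With the genotype of the record it was not called (−0.55, adjusted p = 0.598 by edgeR). Without the 4 mice Socs1 differed between stages by −1.32.

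The same lists also differed between region labels, averaged over the 4 genotype and stage groups. Of the class II pathway list, 4 of 19 were lower in brainstem-labelled libraries and 0 higher, namely Ifi30 (−1.22), a thiol reductase of the endosome, Cd83 (−0.80), Ctss (−0.62) and cathepsin L, Ctsl (−0.42, log2 differences called by edgeR). Of the induction list, Jak1 (0.28), Spi1 (0.27) and Tgfbr1 (0.62), a receptor for TGF-beta, were higher among 12 tested. Of the other costimulation and checkpoint list, 4 of 11 were lower and 2 higher, with Cd274, the checkpoint ligand PD-L1, at −1.58, Cd48 at −0.80 and Icosl, the ligand of ICOS, at −0.59. Ctss, Ifi30, Cd83, Tgfbr1, Cd274 and Cd48 were called in 18 of 18 alternatives, Ctsl and Icosl in 17, Spi1 in 9 and Jak1 in 8. These counts stand against 14% of all genes called in that comparison.

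The summed markers of some other cells that carry class II differed between genotypes. In cortex-labelled libraries the 9 markers of border-associated macrophages summed to 58.6 to 278 CPM in VE mice, against 24.1 to 28.5 CPM in controls, at end-stage, and to 68.7 to 116 CPM in VE mice, against 2.79 to 33.4 CPM in controls, at 2 months. Siglec1 made up most of the VE sums at 2 months, with 64.8 to 109 CPM in VE mice and 1.15 to 4.46 CPM in controls. Mrc1 (at most 6.56 CPM), Cd163 (at most 2.54 CPM) and Lyve1 (at most 4.76 CPM) stayed low in every library. Only 2 of these 9 markers had a log2 difference above 0 in cortex-labelled libraries at 2 months, with a list median of −2.07. Siglec1 alone of them passed by edgeR. At end-stage 4 of the 9 were above 0 there, with a median of −0.06, and 0 passed. The 7 monocyte markers summed to 59.6 to 101 CPM in VE mice, against 1.09 to 6.31 CPM in controls, in cortex-labelled libraries at 2 months. Plac8 made up most of that, with 57.5 to 97.9 CPM in VE mice and 0.601 to 1.98 CPM in controls, while Ly6c2 was at most 1.13 CPM. At end-stage the monocyte sums in cortex-labelled libraries overlapped, at 2.34 to 5.01 CPM in VE mice and 0.424 to 8.49 CPM in controls. At 2 months the 8 dendritic cell markers there summed to 39.4 to 57.7 CPM in VE mice, against 43.4 to 64.9 CPM in controls. Those of B and plasma cells summed to 429 to 649 CPM in VE mice, against 682 to 801 CPM in controls, and Ighm made up most of it, while Ms4a1 and Pax5 had no count in 18 of 20 libraries. Of these markers Cd79b and Ighd passed there by edgeR and were lower in VE mice. At end-stage in cortex-labelled libraries the sums were 280 to 284 CPM in VE mice, against 790 to 873 CPM in controls. Cd79b, Ighm and Ighd passed there and were lower in VE mice. Of 10 microglial markers, P2ry12, Sall1 and Gpr34 were lower in VE mice in cortex-labelled libraries at 2 months, and these 3 and Fcrls also at end-stage. With the genotype of the record, Siglec1 and Plac8 in cortex-labelled libraries at 2 months differed by −0.58 and −1.07 on the log2 scale. P2ry12, Sall1 and Gpr34 differed there by 0.41, 0.32 and 0.58, and Cd79b and Ighd by 0.07 and 0.76. The part of these cells in the levels of Cd74 and Cd40 was not tested.

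Over the 20 libraries, the genes most like the mean log2 CPM of Cd74, H2-Aa, H2-Ab1 and H2-Eb1 were ranked among 9883 genes by Pearson correlation. They were H2-Q4 (0.793), Best1 (0.767), Ltb (0.758), Hspb6 (0.747), Msrb1 (0.738), Slc39a11 (0.732), Tmem129 (0.730) and H2-DMb2 (0.725), of which 3 were also among the 8 nearest by Spearman correlation. Those most like Cd40 were Ifi47 (0.909), Il18bp (0.879) and Gbp2 (0.856), of which 1, Il18bp, was among the 3 nearest by Spearman. Those most like Cd86 were Wls (0.805), Mymk (0.797) and Pycard (0.782), of which 0 were. The libraries share mice and groups, and the correlations describe these 20 libraries alone.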

How the data were processed

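Per the labels' protocols, microglia RNA went through SMART-Seq v4 amplification and paired-end sequencing. The file holds raw counts of reads for each gene, deposited by the authors without normalization. The submitters' processing notes list FastQC, Subread, edgeR and mm10. The annotation, strand setting and treatment of multi-mapping reads are not given in the sources used here. Of 55487 identifiers, 55394 were matched to symbols with GENCODE M21 of GRCm38. Columns were tied to samples through the descriptions, and the 2-month genotype was read from the title that bears the mouse number of the column.

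The test was that of edgeR 4.0.16 under R 4.3.3 (filterByExpr, 16595 genes kept, TMM factors, 1 quasi-likelihood model over 8 groups and 20 libraries, 13 comparisons, Benjamini-Hochberg over all genes, threshold 0.05). A standard error is the log2 difference over the root of F. CPM was computed on TMM-scaled totals, and floors of 3 counts cover counting error only, since reads carry no molecular identifiers. Scripts were tested on simulated data.

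Alternatives were RLE size factors, no low-count filter, the compared groups alone, the genotype of the sample record, leaving out the 4 mice with conflicting labels, leaving out each mouse, DESeq2 1.42.0, and the mouse as a block. Both libraries of a mouse come from 1 animal, so the mouse pairs them. Their deviations from the group means correlated by 0.101 to 0.265 in 10 of 10 mice, and the correlation within a mouse in limma 3.58.1 voom was 0.18.

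The 9 members are all named. Of each list, up to 4 members that passed in a comparison are named by p, and by likeness the 8 genes nearest to the class II mean and the 3 nearest to Cd40 and to Cd86, among genes whose mean log2 CPM reached 1, without predicted genes and pseudogenes. The members and lists were chosen with earlier results of these data known. Some genes of the lists are not reported here.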

Additional observations from a re-analysis of the deposited data

How the results depend on the processing

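By edgeR with the main settings, 1 of 9 members was called in cortex-labelled libraries at 2 months (Cd40) and 1 between region labels (Cd74), and 0 in the other comparisons. Without the low-count filter the members called numbered 3 and 1 at end-stage and 4 and 5 at 2 months between genotypes in brainstem-labelled and cortex-labelled libraries, 2 and 1 between stages in VE mice, 1 and 1 between stages in controls, 6 between region labels, 2 for genotype by stage in cortex-labelled libraries and 1 for genotype by region at 2 months. The fit without the filter also tested genes with very few counts. With the compared groups alone the members called numbered 1 at end-stage and 2 at 2 months in cortex-labelled libraries. Shares of all genes called without the filter, with the compared groups alone or with the mouse as a block are not given here. Member counts under these settings are therefore not read as a result about the members. DESeq2 called 1 member at end-stage in brainstem-labelled libraries, where it called 2.13% of all genes. It called 2 members at 2 months in cortex-labelled libraries, where it called 9.41% of all genes. With the genotype of the record, and without the 4 mice with conflicting labels, 0 were called at 2 months in cortex-labelled libraries and 0 between region labels. Under the record the Cd40 difference reversed to −1.30, and the cause was not tested. The replicate block gave 2 members at 2 months in cortex-labelled libraries (voom, the mouse as a random block) and 2 between region labels (edgeR, the mouse as a fixed block), and changed no other call of a member. Leaving out each mouse gave 1 to 2 members at 2 months in cortex-labelled libraries and 0 to 1 between region labels. Of 2007 member values under alternatives, 185 changed sign without being called in either setting, so uncalled directions are not firm. RLE factors moved no call of a member.

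Genes called over the whole table, with the lowest and highest over the alternatives, were 25 (1 to 574) and 666 (171 to 1282) at end-stage and 6 (0 to 499) and 904 (1 to 1562) at 2 months between genotypes in brainstem-labelled and cortex-labelled libraries. Between region labels they were 2330 (494 to 3165). Between stages they were 7 (0 to 423) and 305 (24 to 963) in VE mice and 0 (0 to 270) and 0 (0 to 282) in controls. For genotype by stage they were 1 (0 to 190) and 44 (2 to 565), and for genotype by region 14 (0 to 221) at end-stage and 4 (0 to 350) at 2 months. Ciita had at most 28 counts in a library, and no detection limit was computed for it.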
